A study of Rattus norvegicus with 86 samples.

Results

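Genes of the ubiquitin and proteasome system were described in the prelimbic cortex (PL) of Heterogeneous Stock (HS) rats. A gene was taken as a member when its Ensembl identifier was paired with a name starting with Usp, Ube, Trim, Rnf, Fbxo, Fbxl, Fbxw, Cul, Klhl or Psm in the tables of expression quantitative trait loci (eQTLs) that came with the study. This gave 57 of the 17250 genes in the expression table. None of the 57 names started with Cul. Of the 57, 34 were named in a table of eQTLs of the infralimbic cortex that was used here for part of the chromosomes, 25 in a table of genes whose eQTL was listed for 1 of the 5 regions the study sampled, and 2 in both. An eQTL is a DNA variant associated with the level of a gene, so every member had such an association in some brain region of these same rats, and the spread of a member between rats was not read as a finding. Only 19.1% of the identifiers could be named, and the 57 are therefore not a sample of the whole ubiquitin system.

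The HS stock is an outbred population descended from inbred founder strains. Bulk polyA RNA of the PL, dissected from both hemispheres of each brain, was sequenced in 1 library per rat, and no rat had taken part in a behavioral or drug experiment. Of 86 labelled samples, 6 had been removed, leaving 40 females and 40 males. By the rat batch given in the labels, 14 rats belonged to batch 2 (3 females, 11 males), 23 to batch 3 (13 females, 10 males), 26 to batch 4 (15 females, 11 males), 1 female to batch 5 and 16 to batch 6 (8 females, 8 males).

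Ubiquitin is a small protein that is joined to other proteins by a relay of enzymes. An E1 enzyme activates it, an E2 enzyme carries it, and an E3 ligase chooses the protein that receives it. RING finger and tripartite motif (TRIM) proteins are E3 ligases or relatives of them, while F-box proteins and many Kelch-like proteins are the parts of cullin ligases that bind the target. Deubiquitinases (Usp) remove ubiquitin, and the proteasome degrades proteins that carry ubiquitin chains. In neurons the system takes part in the turnover of synaptic proteins.

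Every value given here for a rat is log2 of its adjusted read count plus 1, and every difference is a difference of such log2 values. Among the 57 genes were 3 E2 enzymes, the U-box ligase Ube4b, 14 RING finger genes, 11 TRIM genes, 12 F-box genes, 8 Kelch-like genes, 4 deubiquitinases and 4 proteasome subunits. Of the 57, 55 had a value above 0 in every rat. The exceptions were Rnf183, at 0 in 29 rats, and Trim6, at 0 in 37. In 51 members the mean over all rats was at least 5, and in 6 it was lower (Fbxl13, Fbxl8, Fbxo17, Rnf183, Trim6 and Trim72). Gene lengths were not used, so levels were compared between rats and not between genes. Each library had between 16273 and 16901 genes above 0, and the medians of batches 2, 3, 4 and 6 were 16793, 16678, 16722.5 and 16774. In tissue pieces such as these, fewer cells of a type and less RNA per cell cannot be told apart. Of 39 cell type markers listed, 5 could be matched to an identifier and none of those for neurons, oligodendrocytes, endothelium or striatum, so the labelled region was not checked against its own markers.

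Sequences in front of 6 members are shown first, because these genes carry the patterns described further on: the closest pair of members across rats (Fbxo7 and Psmb4), the proteasome subunit that correlated with Psmb4 (Psmd13), the inducible proteasome subunit Psmb9, the TRIM gene with an interferon motif (Trim21) and the gene with separate high and low rats (Trim45). Each is the RefSeq promoter of the GRCr8 assembly, from 250 bases before to 50 after the start of the gene, written 5′ to 3′ on the strand of the gene. GRCr8 is not the build of the expression table (Rnor_6.0), and HS rats can carry other alleles. Capitals mark matches, on either strand, to the interferon-stimulated response element core (GAAA, any 2 bases, GAAA), the gamma-activated site (TTCNNNGAA), the antioxidant response element core (TGACNNNGC), the GC box (GGGCGG), the CCAAT box (CCAAT) and the TATA box (TATAAA).
Fbxo7 (chr7:19725131-19725430, minus strand): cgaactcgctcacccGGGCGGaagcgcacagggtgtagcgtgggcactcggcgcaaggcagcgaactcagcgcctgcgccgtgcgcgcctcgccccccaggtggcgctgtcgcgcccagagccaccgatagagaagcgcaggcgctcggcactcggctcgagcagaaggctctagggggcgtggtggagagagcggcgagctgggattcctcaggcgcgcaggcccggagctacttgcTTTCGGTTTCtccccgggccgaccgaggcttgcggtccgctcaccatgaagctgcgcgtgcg
Psmb4 (chr2:185134512-185134811, minus strand): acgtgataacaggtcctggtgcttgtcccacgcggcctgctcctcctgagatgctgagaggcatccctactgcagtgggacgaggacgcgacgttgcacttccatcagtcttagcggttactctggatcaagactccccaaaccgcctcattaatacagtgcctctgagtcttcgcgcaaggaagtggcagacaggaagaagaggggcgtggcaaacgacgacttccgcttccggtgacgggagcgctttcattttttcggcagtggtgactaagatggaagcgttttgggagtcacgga
Psmd13 (chr1:205393998-205394297, plus strand): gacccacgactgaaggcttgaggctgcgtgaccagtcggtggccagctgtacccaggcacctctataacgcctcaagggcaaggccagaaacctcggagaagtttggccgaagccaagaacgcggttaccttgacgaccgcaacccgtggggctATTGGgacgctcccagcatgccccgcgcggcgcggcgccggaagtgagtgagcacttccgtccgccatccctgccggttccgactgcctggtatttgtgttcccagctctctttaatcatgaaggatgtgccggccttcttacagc
Psmb9 (chr20:4668750-4669049, plus strand): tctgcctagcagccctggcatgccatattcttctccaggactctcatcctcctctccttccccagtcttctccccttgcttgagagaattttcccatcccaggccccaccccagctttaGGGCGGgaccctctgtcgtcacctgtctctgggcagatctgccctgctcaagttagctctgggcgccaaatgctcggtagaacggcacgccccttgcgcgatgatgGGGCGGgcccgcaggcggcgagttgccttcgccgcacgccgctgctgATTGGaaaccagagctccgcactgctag
Trim21 (chr1:166399322-166399621, minus strand): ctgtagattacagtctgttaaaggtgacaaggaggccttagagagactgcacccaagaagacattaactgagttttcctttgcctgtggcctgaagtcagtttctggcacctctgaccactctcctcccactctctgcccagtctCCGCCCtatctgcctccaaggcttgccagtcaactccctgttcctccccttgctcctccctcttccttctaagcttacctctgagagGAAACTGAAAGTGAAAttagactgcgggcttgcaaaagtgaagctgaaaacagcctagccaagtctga
Trim45 (chr2:191038881-191039180, plus strand): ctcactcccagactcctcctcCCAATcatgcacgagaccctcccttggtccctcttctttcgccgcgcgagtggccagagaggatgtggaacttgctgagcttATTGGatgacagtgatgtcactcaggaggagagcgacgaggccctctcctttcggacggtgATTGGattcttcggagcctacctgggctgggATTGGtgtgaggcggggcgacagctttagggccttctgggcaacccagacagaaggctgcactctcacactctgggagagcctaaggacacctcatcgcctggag

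Of the 57 members, 52 had a promoter in this set, and Fbxl8, Fbxo3, Psmd12 and Rnf11l1 were among those that did not. The GC box was present in 32 of the 52 (61.5%), beside 34.9% of all 27457 promoters, and the CCAAT box in 20 (38.5%), beside 37.7%. The interferon-stimulated response element core was found in Fbxo7, Rnf121, Rnf183 and Trim21, against 3.77% of all promoters. In Trim21, an antibody receptor in the cytosol, 2 overlapping matches lay shortly before the start. The gamma-activated site was found in Klhl28 only (8.68% of all promoters), and the antioxidant element core in 9 members (12.2% of all promoters). Of the members with a sequence above, Trim45 had 4 CCAAT boxes, Psmb9 had 2 GC boxes and a CCAAT box, and Psmb4 had none of the 6 motifs in this window. Promoters of the members had a median GC content of 61.7%, and all promoters one of 52.3%. The 27457 promoters were not limited to genes of the expression table, and whether its other genes share these traits was not tested. These matches describe the letters only.

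Rats of different batches differed in most members. In limma's F-test over the batches, with sex as a covariate and Benjamini-Hochberg adjustment over all 17250 genes, 43 of the 57 members had an adjusted p under 0.05, beside 59.4% of all genes. Among genes with a mean of at least 5 the counts were 43 of 51 members (84.3%) and 70.7% of all such genes. To give the batch difference a sign, the mean of batches 4 and 6 (42 rats) was compared with the mean of batches 2 and 3 (37 rats) in the same fit. These sides were chosen with earlier results of these data known. Batch was a fixed term, so the standard errors and p-values rest on the spread of rats within batches. They do not cover how far batches of the same side differ from each other. By this contrast 39 of the 57 members differed, beside 55.4% of all genes. All 39 were among the 51 with a mean of at least 5, where 64.8% of genes were called. Of these, 16 were higher in batches 4 and 6 (28.8% of all genes were) and 23 were lower (26.6% of all genes were). Among the 51 members with a mean of at least 5 these were 31.4% and 45.1%, beside 32.5% and 32.3% of all such genes. The differences of the 39 ranged from 0.05 to 0.58 in size with a median of 0.17, and 11 were over 0.25. The median difference was -0.04 over the members and 0.01 over all genes. In no member, and in 0% of all genes, did the rats of batches 4 and 6 lie wholly apart from those of batches 2 and 3.

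**Figure D1:**
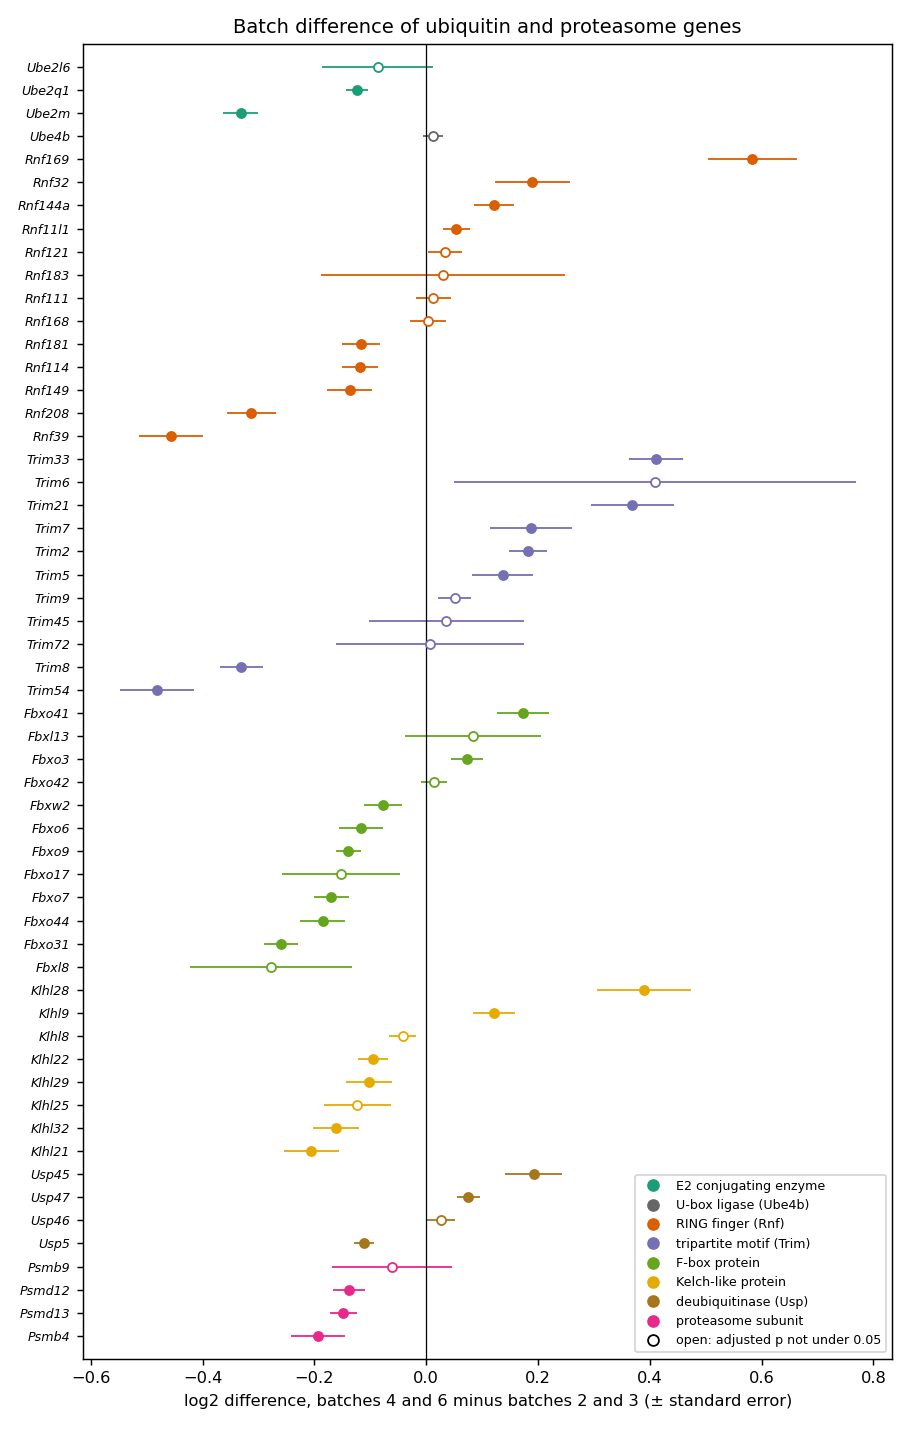
Difference between rat batches for the members, apart from those not reported here by name. The horizontal axis gives the limma estimate of the mean of batches 4 and 6 minus the mean of batches 2 and 3 in log2 units, bars are 1 standard error, and colours give the role. Filled points had an adjusted p under 0.05, on both sides of 0. The proteasome subunits and E2 enzymes lie left of 0, and RING finger and TRIM genes lie on both sides.

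The E2 enzymes were lower in batches 4 and 6 or did not differ. Ube2m (ENSRNOG00000027514) encodes the E2 that carries NEDD8, the ubiquitin-like protein that switches cullin ligases on, and it had the smallest batch p of all members. Its values were 11.45, 11.82 and 12.09 (lowest, median, highest) in batches 2 and 3 and 11.09, 11.48 and 11.71 in batches 4 and 6. All 42 rats of batches 4 and 6 lay below the median of batches 2 and 3, and 28 of the 37 rats of batches 2 and 3 lay above every rat of batches 4 and 6. The difference was -0.33 ± 0.03 (SE, adjusted p = 1.31e-14, limma). Ube2q1, another E2, had medians of 11.06 and 10.94 on the 2 sides and differed by -0.12 ± 0.02 (adjusted p = 1.13e-07). Ube2l6, the E2 for the interferon-induced ubiquitin-like protein ISG15, had medians of 5.46 and 5.39 and a difference of -0.09 ± 0.10 (adjusted p = 0.473). The U-box ligase Ube4b, which extends ubiquitin chains, had the smallest spread of any member (SD of 0.0741 after removing sex and batch) and a difference of 0.01 ± 0.02 (adjusted p = 0.586).

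Of the 14 RING finger genes, 5 were higher in batches 4 and 6, 5 lower and 4 not called, shares close to those of all genes with a mean of at least 5 (32.5% higher and 32.3% lower). Rnf169, which binds ubiquitylated chromatin at DNA breaks, ranged from 5.39 over a median of 6.38 to 6.89 in batches 2 and 3 and from 6.29 over 6.82 to 7.30 in batches 4 and 6. It was higher by 0.58 ± 0.08 (adjusted p = 2.19e-09), the largest difference of any member that passed the test, and 19 of 42 rats of batches 4 and 6 exceeded every rat of batches 2 and 3. Its relative Rnf168, the ligase that writes the mark at DNA breaks, had batch medians of 8.89, 8.72, 8.82 and 8.81 in batches 2, 3, 4 and 6 and differed by 0.00 ± 0.03 on this contrast (adjusted p = 0.932), although the F-test over the batches passed (adjusted p = 0.00759). Rnf39 (ENSRNOG00000000781), a gene of the major histocompatibility region, ran the other way. Its median was 8.93 in batches 2 and 3 (8.24 to 9.52) and 8.48 in batches 4 and 6 (7.66 to 9.08), a difference of -0.46 ± 0.06 (adjusted p = 2.04e-10). Rnf208 (ENSRNOG00000010607) fell from a median of 11.18 (10.75 to 11.65) to 10.80 (10.47 to 11.22), a difference of -0.31 ± 0.04 (adjusted p = 3.97e-09), with 40 of 42 rats below the median of batches 2 and 3. Among the other RING genes, Rnf32, Rnf144a and Rnf11l1 were higher by 0.05 to 0.19, and Rnf149, Rnf114 and Rnf181 were lower by 0.12 to 0.14. Rnf11l1 lost the call in 7 of 13 alternatives, Rnf32 in 4, Rnf144a and Rnf149 in 3, Rnf114 in 2 and Rnf181 in 1. Rnf11l1 is a copy of Rnf11, so its count is uncertain where reads fit both.

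The TRIM genes were higher in batches 4 and 6 in 5 of 11 cases and lower in 2 (28.8% and 26.6% of all genes). Among all genes with a mean of at least 5 these shares were 32.5% and 32.3%. Trim33 (ENSRNOG00000018946), a nuclear ligase and corepressor of SMAD signalling, had values of 8.17, 8.61 and 9.03 in batches 2 and 3 and of 8.63, 9.04 and 9.35 in batches 4 and 6. It was higher by 0.41 ± 0.05 (adjusted p = 1.55e-11), and all 42 rats of batches 4 and 6 lay above the median of the other side. Trim2, a ligase known in neurons for acting on neurofilament light chain, was higher by 0.18 ± 0.03 (medians 13.16 and 13.39, adjusted p = 4.28e-06). Trim8 (ENSRNOG00000019968), a regulator of cytokine signalling, was lower, with 10.82, 11.16 and 11.57 against 10.53, 10.85 and 11.26 (-0.33 ± 0.04, adjusted p = 1.11e-11). Trim54 (ENSRNOG00000006146), best known from the sarcomere of striated muscle, had its lowest values in batch 6. Its batch medians were 7.40, 7.45, 7.18 and 6.81 in batches 2, 3, 4 and 6, and the difference was -0.48 ± 0.07 (adjusted p = 2.02e-09). Trim54 and the proteasome subunit Psmd13 are the members whose eQTL the study lists for the PL alone.

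**Figure D2:**
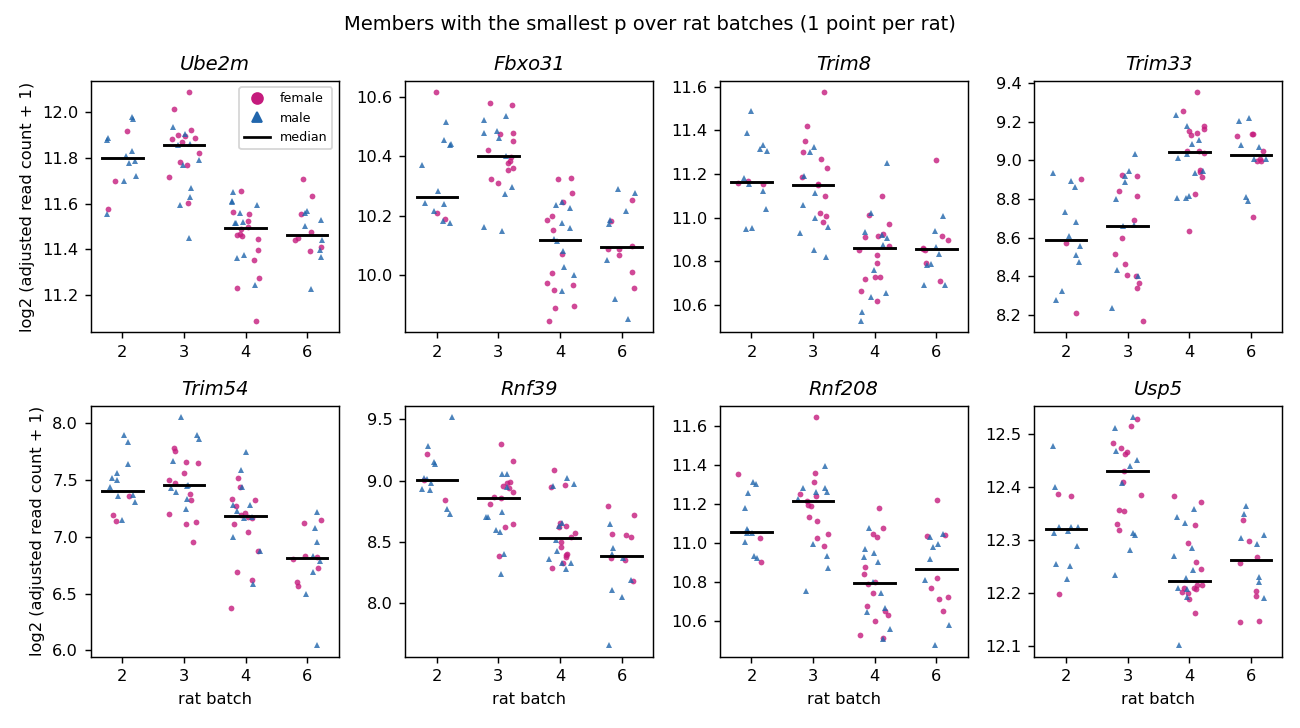
Values of the 8 members with the smallest p over the rat batches. Each point is a rat (circles female, triangles male), the vertical axis of each panel is log2 of the adjusted read count plus 1 and does not start at 0, and the black line is the batch median. Trim33 is higher in batches 4 and 6 and the other 7 are lower, with overlap of the rats in every panel. The single rat of batch 5 is not drawn.

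The F-box genes were lower in batches 4 and 6 in 6 of 12 cases and higher in 2 (26.6% and 28.8% of all genes). Among all genes with a mean of at least 5 these shares were 32.3% and 32.5%. Fbxo31 (ENSRNOG00000042274), a substrate receptor that acts on cyclin D1 and that has been studied in neuronal polarity, had values of 10.15, 10.38 and 10.61 in batches 2 and 3 and of 9.85, 10.11 and 10.33 in batches 4 and 6. All 42 rats of batches 4 and 6 lay below the median of the other side, and the difference was -0.26 ± 0.03 (adjusted p = 3.26e-11). Fbxo7, linked in people to a form of parkinsonism and known to bind a proteasome regulator, was lower by the same test (medians 10.23 and 10.04, -0.17 ± 0.03, adjusted p = 3.55e-06). Fbxo9 differed by -0.14 ± 0.02 (adjusted p = 7.42e-08). The neighbouring genes Fbxo6 and Fbxo44, receptors for glycoproteins and their kin, were also lower, with differences of -0.12 ± 0.04 (adjusted p = 0.0082) and -0.19 ± 0.04 (adjusted p = 5.2e-05). Fbxo41 was higher, with batch medians of 9.95, 10.21, 10.25 and 10.27 (0.17 ± 0.05, adjusted p = 0.000994), and lost the call without batch 2 (0.06, adjusted p = 0.262). Fbxo6 and Fbxo41 each lost the call in 2 of 13 alternatives. Fbxo3 was higher by 0.07 ± 0.03 (adjusted p = 0.0223) and Fbxw2 lower (-0.08 ± 0.03, adjusted p = 0.0471). They lost the call in 5 and 6 of 13 alternatives, and Fbxw2 did not pass the F-test over the batches (adjusted p = 0.189).

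Kelch-like genes, most of which serve cullin 3 ligases, were lower in 4 of 8 cases and higher in 2 (26.6% and 28.8% of all genes). Among all genes with a mean of at least 5 these shares were 32.3% and 32.5%. Klhl28 was higher by 0.39 ± 0.08 (adjusted p = 4.84e-05). In batches 2 and 3 it ran from 5.70 over a median of 6.91 to 7.76, and in batches 4 and 6 from 6.54 over 7.30 to 7.87, with 7 rats of batches 2 and 3 below every rat of the other side. Klhl9, which acts on Aurora B in mitosis together with a partner, was higher by 0.12 ± 0.04 (adjusted p = 0.00419). Klhl21, another adaptor of mitosis, was lower (-0.21 ± 0.05, medians 8.72 and 8.53, adjusted p = 0.000301), and Klhl32, Klhl29 and Klhl22 were lower by 0.09 to 0.16. Klhl29 lost the call in 5 of 13 alternatives, Klhl9 in 4 and Klhl22 in 3. Klhl8 and Klhl25 did not pass (-0.04 ± 0.02 and -0.12 ± 0.06, adjusted p = 0.142 and 0.0747).

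Deubiquitinases were represented by 4 genes. Usp5 (ENSRNOG00000015409), which takes apart free ubiquitin chains, had a median of 12.38 in batches 2 and 3 (12.20 to 12.53) and 12.24 in batches 4 and 6 (12.10 to 12.38). The difference was small, -0.11 ± 0.02 (adjusted p = 2.99e-07), but 41 of 42 rats of batches 4 and 6 lay below the median of the other side. Usp45 and Usp47 were higher, by 0.19 ± 0.05 (adjusted p = 0.000975) and 0.08 ± 0.02 (adjusted p = 0.00155). They lost the call in 4 and 3 of 13 alternatives. Usp46, which acts on glutamate receptors at synapses, had batch medians of 12.10, 11.92, 12.07 and 11.99, so that batches 2 and 4 were the higher ones. It passed the F-test over the batches (adjusted p = 0.00347) and not the contrast of sides (0.03 ± 0.03, adjusted p = 0.42).

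The proteasome was represented by the core subunit Psmb4, the regulatory lid subunits Psmd12 and Psmd13, and Psmb9, the subunit that replaces a constitutive one in the immunoproteasome and is induced by interferon gamma. Psmd13 (ENSRNOG00000014109) had values of 10.67, 10.95 and 11.22 in batches 2 and 3 and of 10.60, 10.78 and 10.97 in batches 4 and 6 (-0.15 ± 0.02, adjusted p = 8.6e-08). Psmd12 (ENSRNOG00000003117) ran from 10.63 over 10.88 to 11.0035 and from 10.48 over 10.73 to 10.96 (-0.14 ± 0.03, adjusted p = 2.77e-05). Both were lower in batches 4 and 6, with 40 and 36 of the 42 rats below the median of the other side. Psmb4 (ENSRNOG00000020979) had medians of 10.81, 11.01, 10.72 and 10.79 in batches 2, 3, 4 and 6 and differed by -0.19 ± 0.05 (adjusted p = 0.000423). Batch 3 was the high batch, and without it the difference was -0.11 and did not pass (adjusted p = 0.227), as was so in females alone (-0.20, adjusted p = 0.0641). Psmb9 (ENSRNOG00000000459) had batch medians of 5.30, 5.67, 5.30 and 5.58 and a difference of -0.06 ± 0.11 (adjusted p = 0.651), and 7 rats of batch 4 or 6 lay below every rat of batches 2 and 3.

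**Figure D3:**
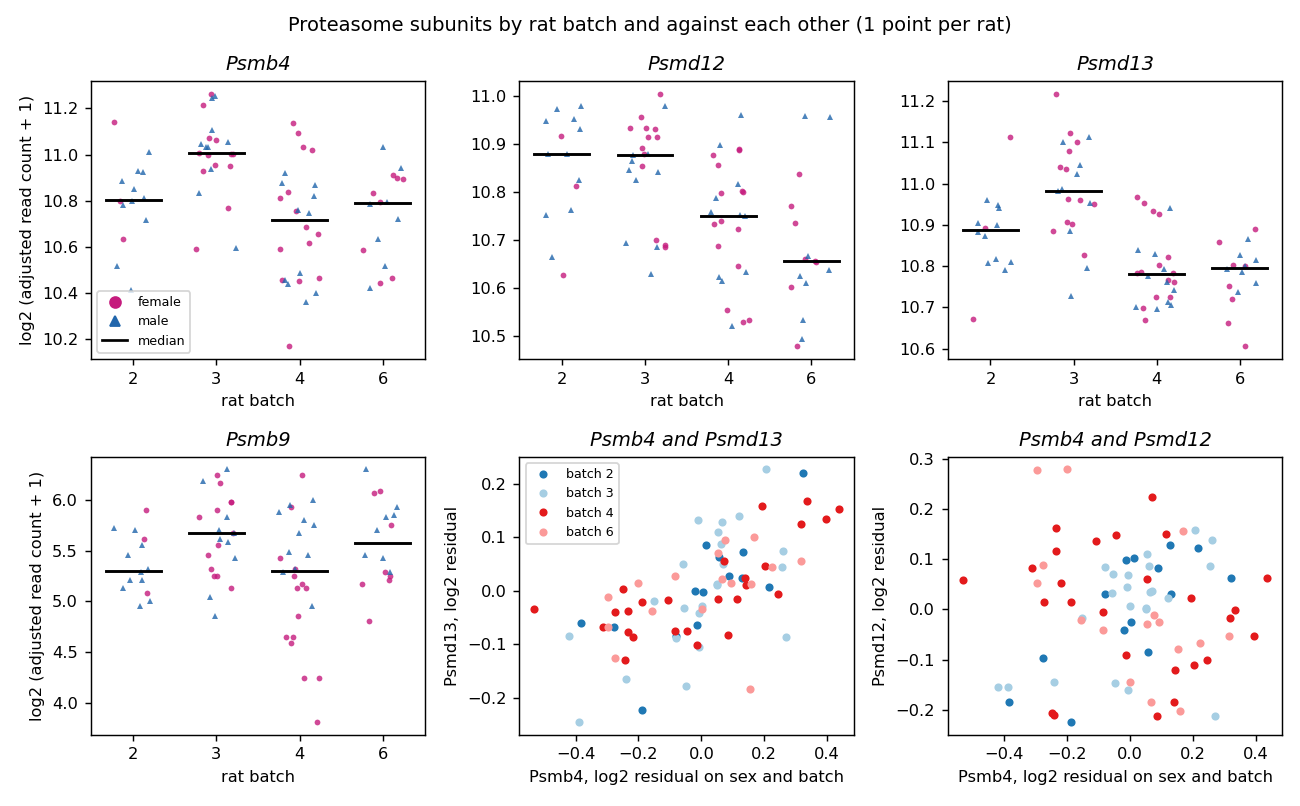
Proteasome subunits in single rats. The first 4 panels give log2 of the adjusted read count plus 1 by rat batch (circles female, triangles male, black line median, axes not from 0), without the batch 5 rat. The last 2 panels plot Psmd13 and Psmd12 against Psmb4 as log2 residuals after removing sex and batch means, coloured by batch: Psmd13 rises with Psmb4 (r = 0.63), and Psmd12 shows no common slope (r = 0.03).

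Of the members known as interferon-induced, 2 of 4 passed the contrast of sides, both higher in batches 4 and 6 (28.8% of all genes were higher). That share was 32.5% among all genes with a mean of at least 5. Trim21 was higher in batches 4 and 6, with values of 5.55, 6.0 and 6.63 against 5.75, 6.35 and 7.06 (0.37 ± 0.07, adjusted p = 1.68e-05). In females alone its difference was 0.26 and did not pass (adjusted p = 0.108). Trim5, a restriction factor against retroviruses, was higher by 0.14 ± 0.05 (adjusted p = 0.0273) and lost the call in 5 of 13 alternatives. Psmb9 and Ube2l6 did not pass, as given above.

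Other genes of the pathway, from lists of E1, E2, cullin, HECT, deubiquitinase and shuttle genes, could be named in 14 cases. Of these, 12 differed over the batches (59.4% of all genes did, and 70.7% of those with a mean of at least 5). On the contrast of sides 4 were higher in batches 4 and 6, a share like that of all genes (28.8%), and 7 lower (26.6% of all genes, and 32.3% of those with a mean of at least 5). Vhl, the target-binding part of a cullin 2 ligase, differed by -0.27 ± 0.04 (adjusted p = 1.77e-09), Tollip, an autophagy adaptor for ubiquitylated proteins, by -0.17 ± 0.02 (adjusted p = 4.02e-09), and Sumo3, a ubiquitin-like modifier, by -0.16 ± 0.03 (adjusted p = 2.03e-07). Josd1, a deubiquitinase, and Rad23b, a shuttle to the proteasome, were lower, with differences of -0.10 ± 0.02 (adjusted p = 1.71e-05) and -0.13 ± 0.03 (adjusted p = 1.65e-05). Higher were Hectd2, a HECT ligase, by 0.21 ± 0.06 (adjusted p = 0.00272), Cops2, a subunit of the signalosome that removes NEDD8 from cullins, by 0.14 ± 0.03 (adjusted p = 0.000216), Cacul1, a cullin-like gene, by 0.09 ± 0.03 (adjusted p = 0.0105), and Nbr1, an autophagy receptor, by 0.06 ± 0.02 (adjusted p = 0.00118). The cullin partner Rbx1 differed by -0.15 ± 0.06 (adjusted p = 0.0257). Uba3, part of the E1 for NEDD8, passed the F-test over the batches (adjusted p = 0.00631) and not the contrast of sides (0.07 ± 0.04, adjusted p = 0.0939), and Hectd3 and Cand2 passed neither.

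Some markers of other cells differed on the same contrast. P2ry12, a microglial receptor, was higher in batches 4 and 6 by 0.27 ± 0.06 (adjusted p = 0.000162), and Dcn, a gene of the meninges, by 0.26 ± 0.08 (adjusted p = 0.00641). The differences of Itgam (microglia, 0.16 ± 0.08, adjusted p = 0.0872), Hbb (blood, -0.34 ± 0.17, adjusted p = 0.088) and Aldh1l1 (astrocytes, -0.08 ± 0.05, adjusted p = 0.187) did not pass. With the values of Hbb, Dcn and P2ry12 added to the fit as covariates, which was done after seeing the data, 31 of the 39 members kept the call. The 8 that lost it were Fbxo3, Klhl29, Klhl9, Rnf11l1, Rnf149, Rnf32, Trim5 and Usp45. The number of genes above 0 in a library as a covariate changed none of the 39 calls.

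Members that were higher in batches 4 and 6 tended to be long genes. Across the 57 members, the distance from the start to the end of the gene in RefSeq and the batch difference had a Spearman correlation of 0.497, and across the 3019 named genes that could be matched to a span the value was 0.403. These are correlations across genes of the same libraries, and genes are not independent replicates.

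Sex made little difference. With batch in the model, 0 of the 57 members differed between males and females by limma, beside 0.365% of all genes (63 of 17250), and 6 members had an unadjusted p under 0.05 (7.82% of all genes did, and 7.95% of those with a mean of at least 5). The smallest p belonged to Klhl21, which had values of 8.02, 8.72 and 9.05 in females and 7.68, 8.54 and 8.90 in males (male minus female -0.14 ± 0.05, adjusted p = 0.307). Its difference was negative in each of the 4 large batches (-0.15, -0.19, -0.14 and -0.07 in batches 2, 3, 4 and 6). Fbxo42, a receptor that acts on p53, had medians of 10.27 in females and 10.24 in males (-0.06 ± 0.02, adjusted p = 0.311) and Rnf11l1 means of 10.95 and 11.01 (0.06 ± 0.02, adjusted p = 0.377). Rnf169 differed by 0.17 ± 0.08 (adjusted p = 0.593).

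Psmb9 had medians of 5.27 in females (3.81 to 6.25) and 5.57 in males (4.86 to 6.30), a difference of 0.23 ± 0.11 (adjusted p = 0.587). Male minus female was -0.21, -0.05, 0.62 and 0.27 in batches 2, 3, 4 and 6, and the lowest rats were females of batch 4. For the interaction of sex with batch, 0% of genes and 0 members had an adjusted p under 0.05 by limma's F-test. Unadjusted, Psmb9 and Rnf32 were the 2 members with a p under 0.05, next to 2.38% of all genes and 1.75% of those with a mean of at least 5.

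After sex and batch were removed, the spread of members between rats was set beside that of other genes, without matching for level. Members were taken through eQTLs of these rats, so their spread is described and not read as a finding. The SD of the residuals had a median of 0.162 over the 51 members with a mean of at least 5 and 0.183 over all such genes, and 19 of the 51 lay above that value. The largest SDs were those of Trim6 (1.56), Rnf183 (0.922), Trim72 (0.727), Fbxl8 (0.618) and Trim45 (0.605). Rnf183, a ligase best known from the kidney, ran from 0.00 over a median of 1.00 to 2.58 and was near the floor in every batch. Trim72, a membrane repair protein of muscle, ran from 1.00 over 3.91 to 4.95, and Fbxl8 from 1.58 over 3.70 to 5.21. In these 3 genes a change of few reads moves the value, and Trim45 was the only one of the 5 with a mean of at least 5.

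Trim45 (ENSRNOG00000015347), a ligase that has been described as a brake on MAP kinase signalling, was the 1 member with separate high and low rats. A mixture of 2 normal distributions was set against a single one for every gene, and 1.52% of all genes and 0.261% of those with a mean of at least 5 met the rule. The low group held 12 rats, with values of 4.95, 5.57 and 5.88 (30, 46.5 and 58 adjusted counts). The high group held 68 rats, with values of 6.21, 6.87 and 7.82 (73, 116 and 225 adjusted counts). Low rats were 6 females and 6 males, 2 of batch 2, 4 of batch 3, 4 of batch 4 and 2 of batch 6. The groups were set by these values, so their difference is a description and has no test. On the values as deposited, without removing sex and batch, Trim45 did not meet the rule and Trim6 did.

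Trim6, a ligase of antiviral signalling that lies close to Trim5 in the genome, had 37 rats at 0 and 18 rats between 2.58 and 5.00 (5 to 31 adjusted counts, median 14). Of the 18, 12 were males and 6 females. The other 62 rats had between 0 and 3 adjusted counts. It missed the rule on the residuals and met it when means 3 rather than 4 component SDs apart were asked for. Reads that fit several TRIM genes of this cluster could have been split between them, and values of Trim5 and Trim6 are uncertain for that reason.

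**Figure D4:**
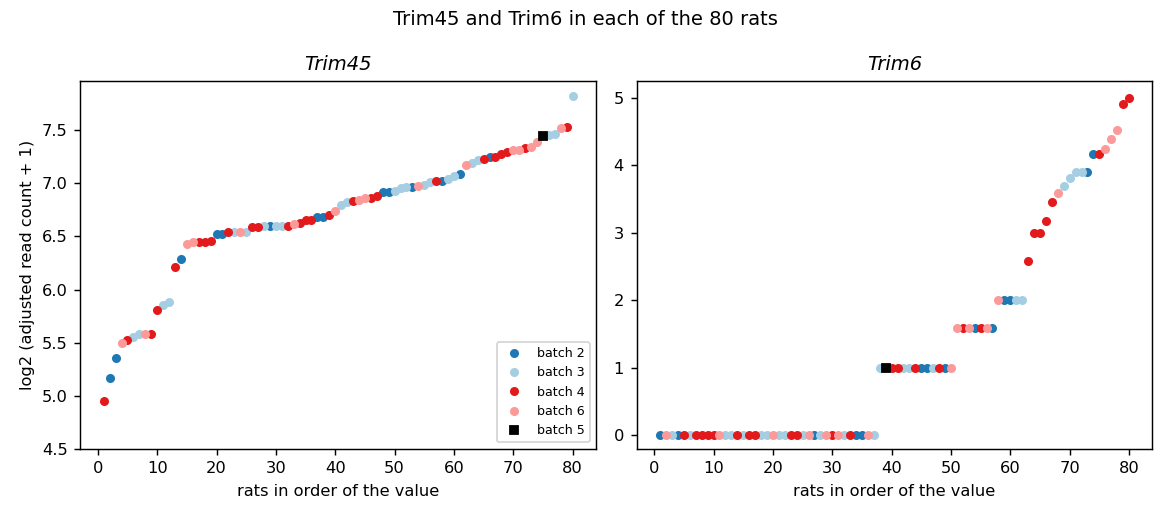
Trim45 and Trim6 in all 80 rats, each panel with the rats in order of their value (horizontal axis, rank) against log2 of the adjusted read count plus 1 (vertical axis, starting at 4.5 for Trim45), coloured by batch. Trim45 steps from 5.88 to 6.21 between 12 low and 68 high rats, and Trim6 lies at 0 in 37 rats and reaches 5.00. Rats of each of batches 2, 3, 4 and 6 are in both groups of Trim45.

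Pairs of members were then compared across the 80 rats on the residuals, with 100000 permutations of rats within sex and batch and adjustment over 8 pairs chosen as genome neighbours, interferon-induced genes or proteasome subunits. The rat of batch 5 has a residual of 0 by construction. Correlations within a single batch used the values as deposited, from which sex was not removed, and are not the same measure as those on residuals. Psmb4 and Psmd13 rose and fell together (Pearson's r = 0.63, Spearman's rho = 0.66, permutation p = 1e-05, the smallest these permutations can give, adjusted p = 8e-05 for both). The correlation was 0.74, 0.62, 0.74 and 0.40 within batches 2, 3, 4 and 6, and without the 2 rats farthest from the median of Psmb4 it was 0.64. In batch 6 alone it did not pass (16 rats, permutation p adjusted to 0.328). Some members outside the proteasome were closer: Psmb4 had r = 0.81 with Fbxo7 and 0.66 with Rnf114, and Psmd13 had r = 0.64 with Fbxo7. An r over 0.3 was found in 12.6% of all pairs of genes with a mean of at least 5. Psmd12 and Psmd13, which sit in the same lid, correlated less (r = 0.35, permutation p = 0.00095, adjusted p = 0.0038, rho = 0.28, permutation p = 0.0116, adjusted p = 0.0465, and r = 0.38 without 2 rats). Within batches 2, 3, 4 and 6 it was 0.54, 0.78, 0.05 and 0.02 and passed in batch 3 alone (permutation p adjusted to 8e-05, and to 0.155 in batch 2). The difference between batches was not tested.

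Psmb4 and Psmd12 had no correlation over all rats (r = 0.03, rho = 0.01, permutation p = 0.816 and 0.928, adjusted p = 0.933 and 0.98, r = 0.01 without 2 rats), but the batches differed in sign. It was 0.73 in batch 2 (14 rats, permutation p = 0.00289, adjusted p = 0.0154) and 0.51 in batch 3 (23 rats, permutation p = 0.0106, adjusted p = 0.0213). In batch 4 it was -0.16 (permutation p = 0.44, adjusted p = 0.703) and in batch 6 it was -0.58 (16 rats, permutation p = 0.0245, adjusted p = 0.152). The difference between the batches was not tested.

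Trim5 and Trim6, with Trim34 between them in RefSeq, correlated by Pearson's r (0.34, permutation p = 0.00234, adjusted p = 0.00624, 0.29 without 2 rats) and not by rho after adjustment (0.24, permutation p = 0.0379, adjusted p = 0.101). With Trim6 at 0 in 37 rats this is a sparse comparison, and within batches it passed in batch 3 alone (r = 0.60, permutation p adjusted to 0.0213). Fbxo6 and Fbxo44, which are direct neighbours, had an r of 0.00 (rho = -0.0028, permutation p = 0.995 and 0.98, adjusted p = 0.995 and 0.98, r = 0.08 without 2 rats). The 3 pairs among Psmb9, Ube2l6 and Trim21 had r between 0.06 and 0.12 and rho between 0.06 and 0.14 (permutation p from 0.214 to 0.636, adjusted p from 0.429 to 0.848, r between 0.04 and 0.13 without 2 rats). In batch 2, Ube2l6 and Trim21 ran in opposite directions (r = -0.57, 14 rats, permutation p adjusted to 0.0274), which did not pass by rho (-0.41, adjusted p = 0.255, permutation).

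All 1540 pairs of members other than Trim45, which has separate groups, were compared in the same way after the data had been seen. The median r was 0.00, and 491 pairs had an adjusted permutation p under 0.05, 253 of them positive and 238 negative. The permutation test was not run on pairs of other genes, so shares of pairs past a fixed r are compared. Correlations of both signs were also found among pairs of any genes of these libraries, at lower shares. An r over 0.3 was found in 14.6% of the members' pairs and 8.10% of all pairs of genes, and one under -0.3 in 13.8% and 7.66%. With a mean of at least 5 these shares were 17.5% of the members' pairs against 12.6%, and 16.1% against 12.04%.

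Signs followed the batch contrast although batch had been removed, both in the members and in genes at large. Of 120 pairs in which both genes were higher in batches 4 and 6, 52 were called positive and 1 negative, with a median r of 0.25. Of 253 pairs in which both were lower, 113 were called positive and 9 negative, also with a median of 0.25. Of 368 pairs with a gene from each side, 4 were called positive and 130 negative, with a median of -0.19. Over all genes with a mean of at least 5, an r over 0.3 was held by 33.01% of pairs with both genes higher, by 33.01% with both lower and by 1.96% with a gene from each side, and in the members by 39.2%, 38.7% and 0.815%. An r under -0.3 was held by 32.1% of all pairs with a gene from each side and by 32.3% of such pairs of members. The pairs share genes and libraries and are not independent of each other.

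Fbxo7 and Psmb4 were the closest pair (r = 0.81, rho = 0.83, r = 0.80 without 2 rats). Fbxo7 also correlated with Klhl22, an adaptor of cullin 3 (r = 0.78), and with Rnf208 (r = 0.74). Rnf208 in turn correlated with Fbxo31 (r = 0.77), Klhl22 (r = 0.77) and Usp5 (r = 0.74). The most negative pairs were Rnf208 with Trim2 (r = -0.76, rho = -0.75), Fbxo41 with Psmd12 (r = -0.71, rho = -0.72), Rnf208 with Usp45 (r = -0.70) and Fbxo31 with Trim2 (r = -0.67). For each of these 10 pairs the permutation p was 1e-05 for r and for rho (adjusted p = 0.000143 and 0.000157), the smallest possible, and r kept its sign without the 2 farthest rats. Whether RNA quality or tissue composition of the libraries moved these genes together was not tested.

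**Figure D5:**
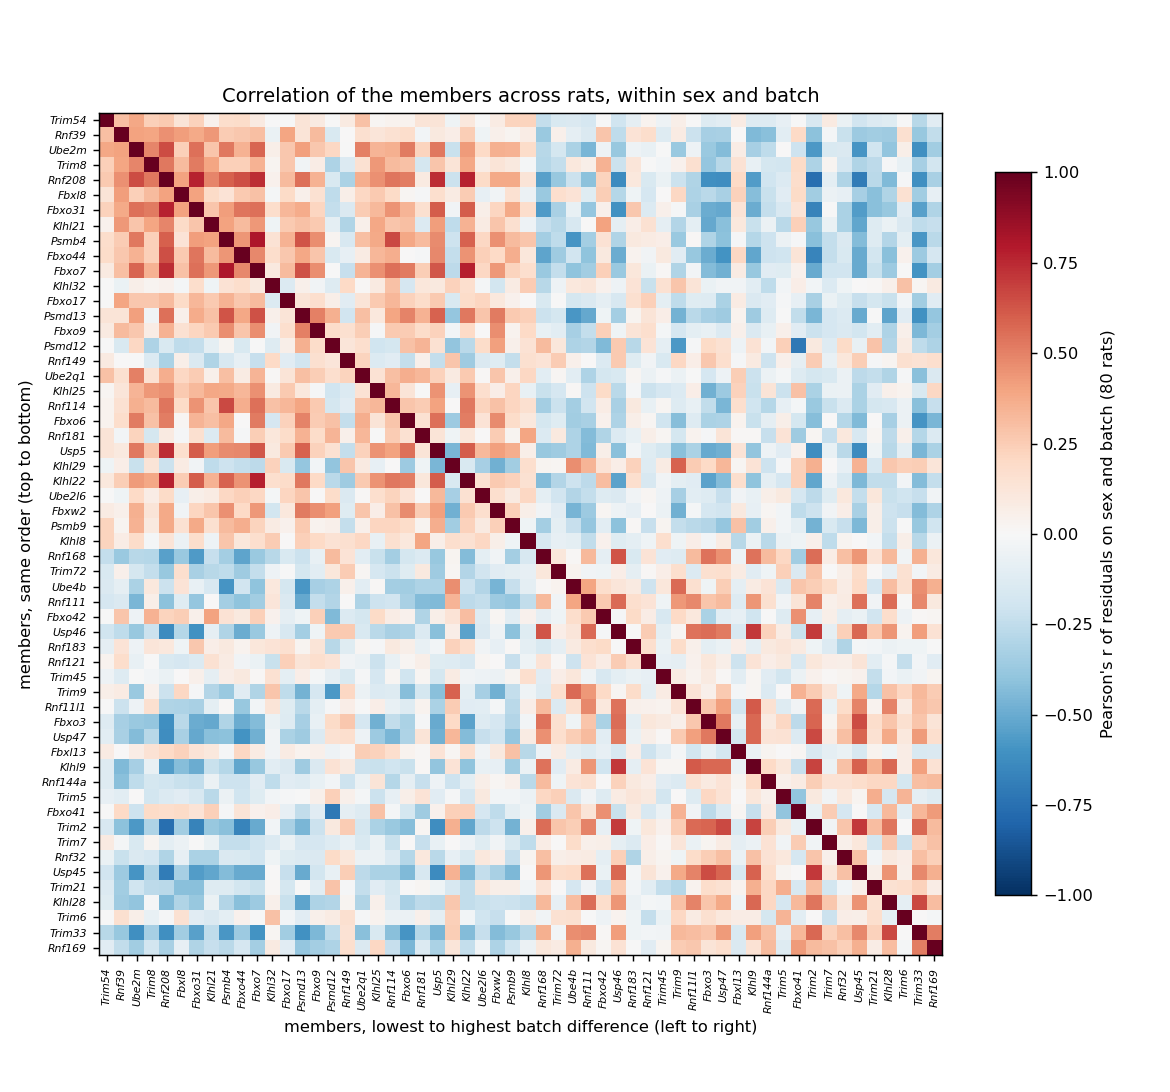
Pearson's r between members across 80 rats, apart from those not reported here by name, on log2 residuals after removing sex and batch. Rows and columns are ordered from the member lowest to the member highest in batches 4 and 6 against batches 2 and 3, and colour runs from -1 (blue) to 1 (red). Red blocks lie in the upper left and lower right and blue in the other corners, and the values between different members run from -0.76 to 0.81.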

How the data were processed

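RNA-Seq expression of the prelimbic cortex (PL) was analysed in 80 HS rats (40 female, 40 male, 1 library each). Sex, rat batch and removal were taken from the labels, and columns were matched to samples by name. The authors trimmed reads with cutadapt, ran RSEM on the Ensembl rat transcriptome (Rnor_6.0) to obtain counts for each gene, adjusted these by the upper quartile in DESeq2 and filtered samples and genes. What they deposited is log2 of the adjusted count plus 1. When the logarithm was undone, 100% of the values were whole within 0.1%. This margin grows with the value and admits any number when the count is large, so the check bears on small counts only. Adjusted counts do not suit a count model, and none was fitted. The adjusted counts summed to between 16957388 and 20613396 per rat, which after the adjustment does not give the depth of a library, so no counting intervals were computed.

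All 17250 genes were fitted with limma 3.58.1 in R 4.3.3 (eBayes with a variance trend), with sex and rat batch as terms, and Benjamini-Hochberg adjusted p-values under 0.05 were counted. Separate high and low rats were called from a mixture of 2 normal distributions on residuals when the Bayesian information criterion fell by more than 10, the smaller group held at least 10% of rats, and the means were at least 4 component SDs and 1 log2 unit apart. Correlations were tested with 100000 two-sided permutations within sex and batch (Python 3.11.15, numpy 2.4.6, scipy 1.17.1, pandas 2.3.3). The limma fits, the mixture rule and the permutation test of correlations were tested on simulated data. Rats of an outbred colony can be related, and the p-values treat them as independent.

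The files name genes by Ensembl identifier. Names came from the eQTL tables of the study, used here in part (3292 identifiers). The members, lists, sides and tests were chosen with earlier results of these data known. Described with values were the proteasome subunits, the members of the fixed pairs, the members with a PL eQTL, the 8 with the smallest batch p, the 5 with the smallest p for sex, the 5 with the largest residual SD, members with separate groups or a rat at 0, at most 20 others by role, and the 3 other pathway genes of each list with the smallest batch p. Rbx1 and Cand2 were named after their values were seen. Some genes are counted and not reported here by name. Alternatives were another pseudocount, a filter on low values, a rank-based inverse normal transformation, other covariates and scalings, each sex alone and batches left out.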

Additional observations from a re-analysis of the deposited data

How the results depend on the processing

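Of 39 members that differed between batches 4 and 6 and batches 2 and 3, 20 kept the call and the direction under all 13 alternatives, and 0 reversed under any. With libraries shifted to the same median, 14 members were higher and 25 lower (16 and 23 as reported). Counts that moved by over 1.5 times were these. Without a batch term 38 genes in place of 63 differed between the sexes. In females alone 6225 genes and 27 members differed over the batches (10249 and 43 with all rats), and in males alone 26 members. On the contrast of sides, 6068 genes were called in females alone (9553 with all rats), and 24 members in males alone and 25 without batch 3 (39 with all rats). A single sex, or no batch 3, leaves fewer rats in the fit. Separate high and low rats were called in 439 genes on the values as deposited and in 444 at 3 component SDs (262 as reported), with 2 members at 3 SDs, Trim45 and Trim6. Pearson's r changed sign within batches 4 and 6 for Fbxo6 and Fbxo44 (-0.048 and -0.20), within batch 2 for Psmb9 and Ube2l6 (-0.15) and for Ube2l6 and Trim21 (-0.57), within batch 3 and on the values as deposited for Psmb9 and Trim21 (-0.018 and -0.0052), and within batches 4 and 6 for Psmb4 and Psmd12 (-0.16 and -0.58), which were called within batches 2 and 3 (0.73 and 0.51). Calls were lost for Trim5 and Trim6 within batches 2, 4 and 6 (0.44, 0.12 and 0.48), for Psmb4 and Psmd13 within batch 6 (0.40) and for Psmd12 and Psmd13 within batches 2, 4 and 6 (0.54, 0.052 and 0.020). Batches 2, 3, 4 and 6 hold 14 to 26 rats each, and the cause of these changes was not tested. Of the 5 smallest p-values for sex, none passed under any of the 8 alternatives run for that comparison. No paired analysis was made, because each rat gave 1 library and the groups compared held different rats. Genes near the floor, such as Rnf183 and Trim6, and members without a matched name limit what could be seen.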
